A study of Drosophila melanogaster with 2 samples.

Results

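CG13287 is a Drosophila gene known by its annotation number, and its product was assayed as a transcription factor by chromatin immunoprecipitation and sequencing (ChIP-seq). The pooled peak list of 2 biological replicates placed 375 of 7026 summits on the nuclear chromosome arms in intergenic DNA away from promoters, a share of 5.34%. A summit is the base that the peak list marks as the highest point of a peak. It was counted here when it lay more than 500 bp from every annotated transcription start site (TSS) and outside every annotated gene. The other summits on the arms comprised 662 in introns and 123 in exons away from start sites, and 5866 within 500 bp of a TSS (promoter summits). Within that list the rule used positions only. The list itself had been thresholded by the authors on the irreproducible discovery rate (IDR), a measure of how alike peaks rank in paired lists, per the names of the deposited lists. Every peak, intergenic or not, had thus passed a filter that bears on signal and replication, and values of both describe the peaks that passed.

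The single group held embryos of a transgenic fly line that expresses CG13287 fused to enhanced green fluorescent protein (CG13287-eGFP), collected at 6 to 24 h. Chromatin came from whole embryos, was sonicated to 200 to 800 bp and was precipitated with an antibody against GFP, so signal from all embryonic tissues was pooled. The tagged protein came from 1 transgenic strain with no other allele named, no untagged or input sample was analysed here, and the labels do not say whether the untagged gene product was also present. Replicate 1 gave 3997 peaks on the arms in its own filtered list and replicate 2 gave 7340, so the single lists differed in length and are given side by side below. With 1 group and 2 libraries no difference between kinds of peak was tested, and shares carry 95% exact Clopper-Pearson intervals that cover counting error only. For a count of 0, the limit given is 3 counts of the total.

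In the compact fly genome, most promoters and many enhancers lie close to genes, and the DNA between genes holds enhancers, insulators (elements that limit contact between an enhancer and a promoter) and gene ends. Several DNA-binding proteins are known for such sites. Su(Hw) is an insulator protein that binds many sites away from promoters, BEAF-32 is an insulator protein found mostly near promoters of active genes, and DREF binds the DNA replication-related element (DRE) at promoters of housekeeping genes. GAGA factor binds GA repeats at promoters, enhancers and Polycomb response elements.

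Shown first are the 5 strongest intergenic peaks found in both filtered single-replicate lists, because a short run of letters recurs in 3 of them. Each line gives 201 bases of the Release 6 (dm6) reference centred on the summit. Capitals mark the DRE core ATCGAT, the core promoter motif Ohler 7 (CATCNCTA or CAGCNCTA) and the word CGTGACACG, all read on both strands.
Peak near CG15468, chrX:4956039-4956239, plus strand: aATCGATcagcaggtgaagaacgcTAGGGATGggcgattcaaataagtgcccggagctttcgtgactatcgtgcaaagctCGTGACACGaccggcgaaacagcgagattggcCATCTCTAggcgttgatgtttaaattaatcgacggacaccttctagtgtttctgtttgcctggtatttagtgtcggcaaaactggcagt
Peak near CG5273, chrX:758874-759074, plus strand: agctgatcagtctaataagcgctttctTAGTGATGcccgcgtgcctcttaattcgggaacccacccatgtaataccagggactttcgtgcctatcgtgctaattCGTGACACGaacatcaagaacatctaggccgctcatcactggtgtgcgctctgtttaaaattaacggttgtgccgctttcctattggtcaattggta
Peak near SP1029, chr3R:29251457-29251657, plus strand: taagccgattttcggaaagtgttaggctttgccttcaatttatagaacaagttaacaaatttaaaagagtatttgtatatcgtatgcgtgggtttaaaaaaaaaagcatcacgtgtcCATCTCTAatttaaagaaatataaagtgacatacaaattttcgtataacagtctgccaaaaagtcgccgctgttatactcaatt
Peak near inc, chrX:1517629-1517829, plus strand: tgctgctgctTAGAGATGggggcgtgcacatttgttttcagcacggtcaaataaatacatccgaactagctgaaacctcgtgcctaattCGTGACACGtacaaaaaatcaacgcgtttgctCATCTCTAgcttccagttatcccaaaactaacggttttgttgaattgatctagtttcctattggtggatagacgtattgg
Peak near Rcd2, chr3L:20540823-20541023, plus strand: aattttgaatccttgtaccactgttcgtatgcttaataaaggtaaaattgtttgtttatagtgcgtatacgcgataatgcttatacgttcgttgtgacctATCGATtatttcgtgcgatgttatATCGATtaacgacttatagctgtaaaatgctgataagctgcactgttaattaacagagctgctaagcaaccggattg
The windows near CG15468, CG5273 and inc held both CGTGACACG and Ohler 7. The SP1029 window held Ohler 7 without that word, and the CG15468 and Rcd2 windows held the DRE core.

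The highest-signal members with each of 3 motifs follow, with the motif in capitals. Of the listed motifs found in at least 5 members, these had the highest ratios to their share of eligible intergenic DNA. These are the full DRE (TATCGATA), the Su(Hw) core (GCATACTT, which reads AAGTATGC on the other strand) and the ETS motif (ACCGGAA, which reads TTCCGGT on the other strand).
Peak near ey, chr4:696821-697021, plus strand: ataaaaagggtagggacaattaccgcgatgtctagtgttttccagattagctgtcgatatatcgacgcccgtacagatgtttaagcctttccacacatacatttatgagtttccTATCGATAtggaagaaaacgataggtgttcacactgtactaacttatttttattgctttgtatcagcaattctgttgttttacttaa
Peak near lncRNA CR42839, chr3R:16004129-16004329, plus strand: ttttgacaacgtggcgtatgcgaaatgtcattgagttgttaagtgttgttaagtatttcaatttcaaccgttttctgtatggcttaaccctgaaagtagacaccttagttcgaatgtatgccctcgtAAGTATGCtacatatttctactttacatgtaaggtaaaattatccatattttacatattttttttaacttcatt
Peak near CG34342, chr3L:5512078-5512278, plus strand: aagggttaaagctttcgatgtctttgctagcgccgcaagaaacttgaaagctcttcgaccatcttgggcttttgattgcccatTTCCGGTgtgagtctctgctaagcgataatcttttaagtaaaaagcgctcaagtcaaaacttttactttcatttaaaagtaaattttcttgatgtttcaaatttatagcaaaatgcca

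Last come the strongest members, on the arms printed here, of the 2 words of 10 letters whose share around these summits exceeded that of eligible DNA by the largest differences in percentage points. The words GCGCCATCTA and AAAGTATGCA are in capitals.
Peak near lncRNA CR44522, chr3L:6264546-6264746, plus strand: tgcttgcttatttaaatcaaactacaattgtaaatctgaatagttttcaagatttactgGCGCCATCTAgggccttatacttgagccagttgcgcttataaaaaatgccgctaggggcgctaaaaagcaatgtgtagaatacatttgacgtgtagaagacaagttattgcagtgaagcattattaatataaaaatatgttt
Peak near CG18418, chr3L:4690657-4690857, plus strand: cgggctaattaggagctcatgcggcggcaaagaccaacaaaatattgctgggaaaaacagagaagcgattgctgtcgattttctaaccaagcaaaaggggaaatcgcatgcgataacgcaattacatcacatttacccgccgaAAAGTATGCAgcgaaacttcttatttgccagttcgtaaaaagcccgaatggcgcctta
The second word holds the Su(Hw) core, and the first holds no motif of the list as written. On the other strand the first reads TAGATGGCGC. The core listed for the insulator protein CTCF was AGGNGGC only, which does not match AGATGGC. Other forms of the CTCF motif were not searched, so the mismatch does not show that the word is unlike CTCF sites.

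The intergenic peaks were of moderate signal. The deposited signal is a value the authors gave each peak, and it is compared here only within a list. It had a median of 125 in the 375 intergenic peaks (quartiles 93.0 and 174, range 18.0 to 851). The medians were 103 in intronic, 111 in exonic and 170 in promoter peaks. The strongest intergenic peak ranked 318 in the whole list. The share of summits that were intergenic was 7.51% in the lowest of 4 equal signal bins of the list and 7.23% in the next, then 4.27%, and 2.33% in the highest bin. Intergenic and intronic peaks had the same median width of 550 bp, and promoter peaks had a median width of 543.5 bp.

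**Figure D1:**
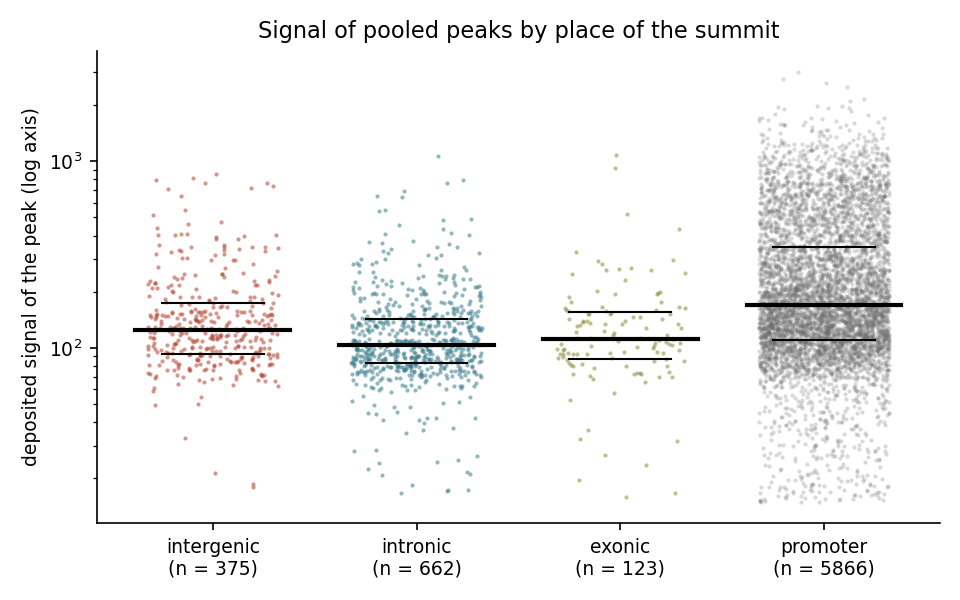
Deposited signal of each pooled peak (log axis) by the place of its summit, intergenic, intronic, exonic or promoter. Thick lines are medians and thin lines quartiles. The intergenic median of 125 lies above the intronic 103 and below the promoter 170, and no intergenic peak passes 851.

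The 20 strongest intergenic peaks had signals of 397 to 851, and all 20 overlapped a filtered peak of replicate 2. In replicate 1, 19 of the 20 did. The strongest lay in the 729 bp between Ptp4E, a receptor protein tyrosine phosphatase, and lncRNA:CR44833, with a signal of 851 in the pooled list, 419 in replicate 1 and 431 in replicate 2. The peak near CG5273 had 815 in the pooled list, 428 in replicate 1 and 395 in replicate 2. The peak between SP1029 and string (stg), the Cdc25 phosphatase that drives entry into mitosis, had 791 in the pooled list, 370 in replicate 1 and 429 in replicate 2. Over the 107 members in both filtered lists, the median signal was 96.3 in replicate 1 and 156 in replicate 2. The 2 lists may thus differ in scale, and values are not compared between them.

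Other strong peaks lay beside genes of varied roles. The peak just past the end of insomniac (inc), an adaptor for Cullin-3 ubiquitin ligases, had a signal of 761 in the pooled list, 384 in replicate 1 and 387 in replicate 2. Beside Rcd2 the values were 760 in the pooled list, 330 in replicate 1 and 439 in replicate 2, at 506 bp from the start site. In the 235 bp between serpent (srp), a GATA factor of blood and fat body, and lncRNA:CR42839, the values were 722 in the pooled list, 178 in replicate 1 and 546 in replicate 2. Among the peaks whose replicate values are given so far, this one was lowest in replicate 1 and highest in replicate 2.

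Several more of the 20 lay beside genes of known function. The peak between RpLP0, which encodes a protein of the ribosomal stalk, and Sfp79B had a pooled signal of 551. The peak beside deadlock (del), a component of the piRNA cluster transcription complex, had 518. The peak at 173 bp from the end of SrpRbeta, a subunit of the signal recognition particle receptor, had 473. The peak in the 443 bp between Cat, which encodes catalase, and Indy, a citrate transporter, had 437. The peak beside ArgRS, the arginyl-tRNA synthetase gene, had 406, the one beside mRpS5 of the mitochondrial ribosome had 403, and the one beside RpL17 had 397. The others of the 20 lay near ey on chromosome 4 (736), CG6465 (712), CG14314 (655), CG4593 (460), Zif (407), CG5445 (402) and RhoL (401), and the ey peak was the one without a replicate 1 peak.

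The windows of the strongest peaks shared letters beyond the DRE. CGTGACACG was found in 4 of the 20 windows of 201 bp, those nearest CG15468, CG5273, inc and Sfp79B, and in 7 of 375 in all (1.87%, interval 0.754 to 3.81%). It occurred in 0.0698% of 191876 eligible intergenic windows of that length, in 1.06% of intronic and in 0.409% of promoter windows. All 7 peaks overlapped a filtered peak of replicate 1, and 6 of 7 one of replicate 2, and their median signal was 551. The word was chosen after its values were seen, as the 9-letter word most shared by the 20 once words of the DRE were set aside, so the count of 4 describes that choice.

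Replication followed signal, and replicate 2 held far more of these peaks than replicate 1. Of the 375 peaks, 237 (63.2%, interval 58.1 to 68.1%) overlapped a peak of the conservative list by at least 1 bp, against 58.2% of intronic, 85.4% of promoter and 81.3% of all peaks. A filtered peak of replicate 1 was overlapped by 115 (30.7%, interval 26.0 to 35.6%), against 28.4% of intronic, 63.8% of promoter and 58.2% of all peaks. For replicate 2 the count was 327 (87.2%, interval 83.4 to 90.4%), against 81.3% of intronic, 94.1% of promoter and 92.3% of all peaks. Both replicates held 107 (28.5%), against 25.4% of intronic, 62.4% of promoter and 56.6% of all peaks. The intergenic shares were thus below those of the whole list in each comparison and near those of the intronic peaks.

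The filtered list of replicate 2 alone held 220 of the 375 peaks, that of replicate 1 alone held 8, and 40 were in neither. This split was not counted for other peaks. In the unfiltered lists, which keep weaker peaks, all 375 overlapped a peak of replicate 2, against 99.9% of all peaks. A peak of replicate 1 was overlapped by 327 (87.2%), against 93.1% of intronic, 97.2% of promoter and 96.2% of all peaks. Signals in the 2 filtered lists were ranked alike where both held the peak, with a Spearman correlation of 0.79 over 107 intergenic peaks, against 0.91 over 3663 promoter peaks. Over the 327 peaks in both unfiltered lists it was 0.62. These values describe regions of the same 2 libraries. Where several peaks of a replicate overlapped 1 member, the highest signal was taken, so a summit on the shoulder of a stronger peak can carry that peak's value, as beside Sumo (127 in the pooled list, 247 in replicate 1 and 518 in replicate 2).

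**Figure D2:**
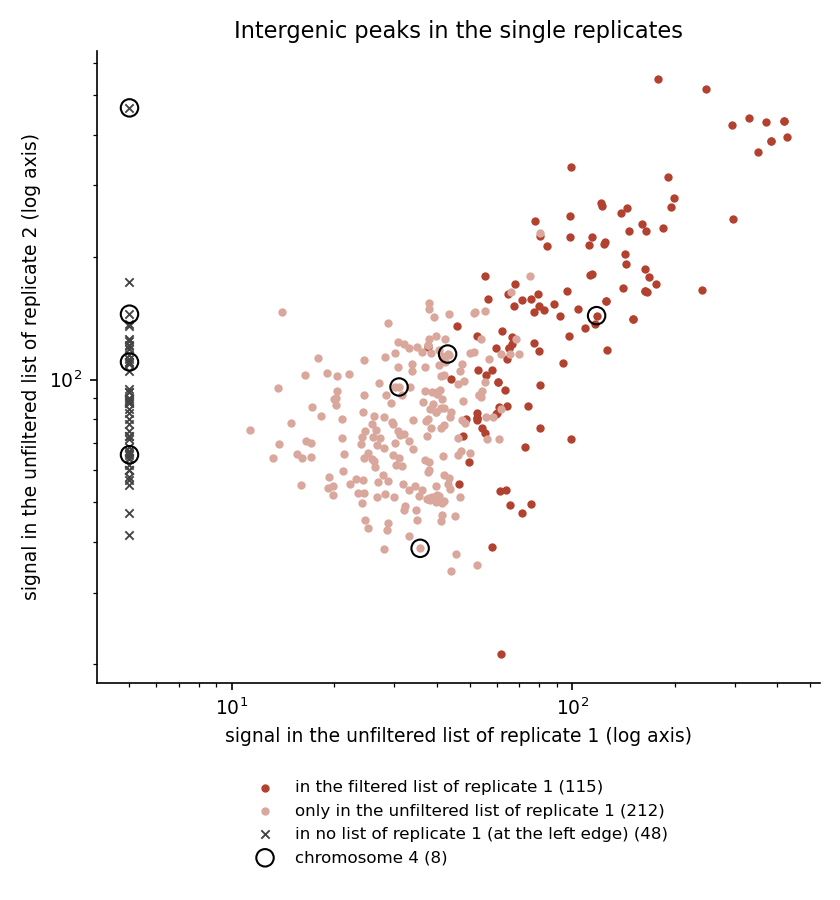
Signal of each intergenic peak in the unfiltered list of replicate 1 (x, log axis) and of replicate 2 (y, log axis). Dark points are in the filtered list of replicate 1, pale points only in its unfiltered list, crosses at the left edge in neither, and open circles mark chromosome 4. The 48 crosses include the ey peak at 465 on the y axis.

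Within the 4 signal bins of the pooled list, overlap with replicate 1 was 3.79% (5 of 132), 18.1% (23 of 127), 65.3% (49 of 75) and 92.7% (38 of 41) of intergenic peaks, low to high. The same shares were 30.2%, 34.1%, 78.6% and 99.7% of promoter peaks. The intergenic shares were thus lower in all 4 bins, and the interval of the intergenic share lay wholly below the promoter value in each. The bins are wide, and in the highest the intergenic peaks ended at 851 and the promoter peaks at 2999.7. Each replicate's own list held a different share of intergenic summits, 3.0% (120 of 3997, interval 2.50 to 3.58%) in replicate 1 and 6.29% (462 of 7340, interval 5.75 to 6.87%) in replicate 2.

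**Figure D3:**
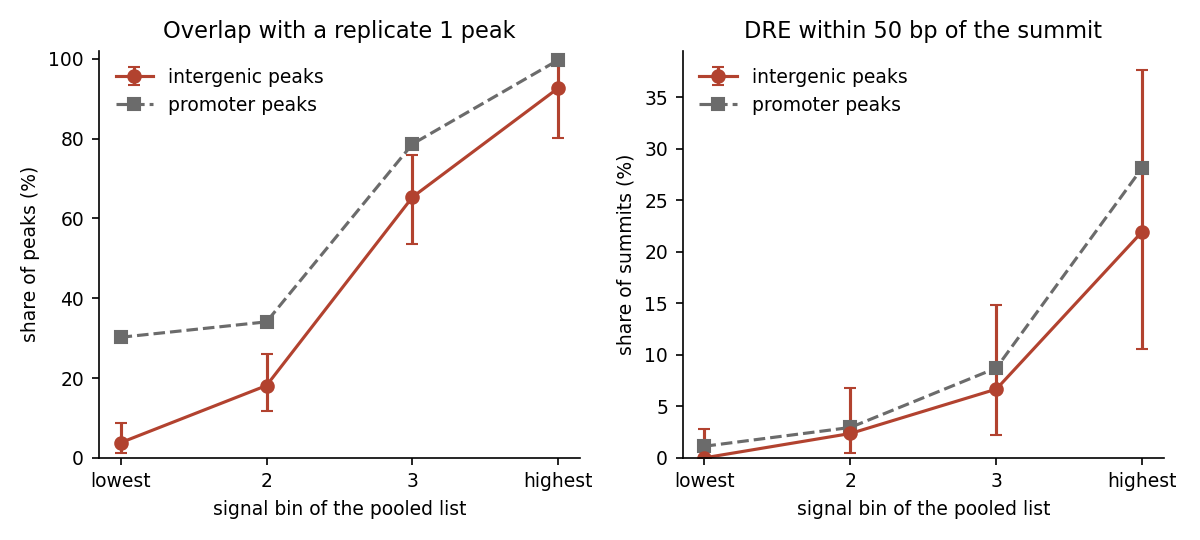
Left, share of peaks that overlapped a filtered peak of replicate 1, and right, share of summits with a DRE within 50 bp, both in %, by signal bin of the pooled list. Intergenic peaks (circles, with 95% exact intervals) rose to 92.7% and 22.0% in the highest bin, promoter peaks (squares) to 99.7% and 28.1%.

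The intergenic summits sat close to genes for intergenic DNA. Their median distance to the nearest TSS was 1820 bp (quartiles 936.5 and 3829.5, range 506 to 34553), against 6331 bp over eligible intergenic windows, meaning 101 bp windows tiled over all bases the rule admits. Distances of 500 to 1000 bp were found for 27.7% of summits and 7.44% of windows, and distances over 10 kb for 7.2% of summits and 37.7% of windows. The gaps between genes that held them were shorter too, with a median of 5319 bp, against 20837 bp for windows. The median distance to the nearest gene edge was 823 bp for summits and 4253 bp for windows.

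**Figure D4:**
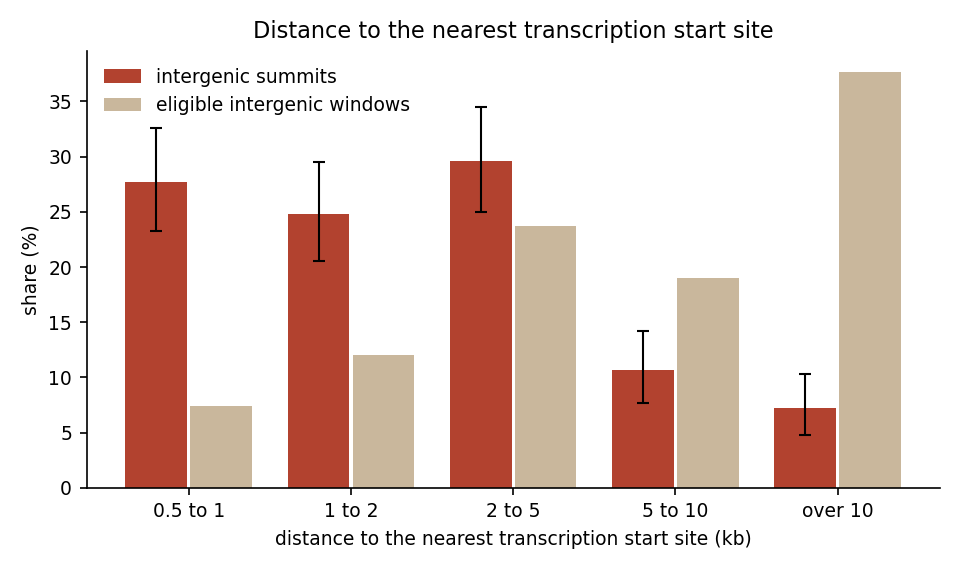
Share (%) of intergenic summits (with 95% exact intervals) and of eligible intergenic windows in each bin of distance to the nearest TSS, in kb. Summits outnumber windows in share below 5 kb and fall under them above it, with 7.2% against 37.7% over 10 kb.

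Admitted DNA made up 28.3% of arm bases, so the 5.34% share of summits was 0.188 times its share of bases. Among the 1160 summits outside promoters, 32.3% (interval 29.6 to 35.1%) were intergenic, and admitted DNA was 32.7% of the bases outside promoters. Intergenic DNA thus held about its share of the peaks that were away from promoters.

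The distance rule cut through a continuous range. Just inside were the peaks near Rcd2 at 506 bp (signal 760), CG14621 at 509 bp (89.6) and CG6885 at 510 bp (124). Just outside were intergenic summits near CheB93a at 493 bp (371), CG8861 at 494 bp (77.9) and H15 at 495 bp (148). The summit farthest from any TSS lay 34553 bp from lncRNA:CR40341 with a signal of 132, and it held a full DRE. The signal had close medians at all distances, of 122 at 500 to 1000 bp, 126 at 1000 to 5000 bp and 128 beyond.

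Divergent gaps held more and tandem gaps fewer of the summits than their share of eligible DNA. Of the summits, 28.3% (interval 23.8 to 33.1%) lay between divergent genes, against 19.7% of windows, 43.7% between tandem genes, against 50.8%, and 28.0% between convergent genes, against 26.0%. Convergent gaps held the peaks most often found in replicate 1, at 44.8% of 105, with 25.6% of 164 in tandem and 24.5% of 106 in divergent gaps. Their median signal was 143, with 119 in tandem and 115 in divergent gaps. Convergent gaps with a member were also the shortest, with a median of 2100 bp, against 5654 bp for tandem and 7259.5 bp for divergent gaps. Of the 20 strongest peaks, 9 were in convergent gaps, 10 in tandem and 1 in a divergent gap.

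The nearest start site belonged to a protein-coding gene for 81.1% of summits and 64.8% of windows, and to a noncoding RNA gene for 16% of summits and 26.5% of windows. The nearest gene itself had a promoter summit in 145 of 375 cases (38.7%). That share was not computed for eligible windows, so it cannot be read as high or low. The summit lay upstream of the nearest start site in 62.4% of cases, also without a share of windows beside it. The rule bears on this value, because it leaves out gene bodies, which lie downstream of start sites. The count was 92 of 104 at 500 to 1000 bp and 23 of 67 beyond 5000 bp. None lay within 500 bp of a TSS or inside a gene of the RefSeq annotation, which allows a share of up to 0.8%. Soft-masked bases, which mark repeats, held 12.8% of summits and 28.6% of windows. They held 20.7% of intronic, 13.3% of promoter and 14.0% of all summits, so the intergenic share was near that of the whole list. Annotated transposable elements held 12 summits (3.20%), against 10.6% of windows, and 8 of the 12 lay in INE-1, an ancient and abundant fly element. Transposable elements held fewer of the other summits, with 1.21% of intronic, 0.153% of promoter and 0.413% of all summits.

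The peaks were spread over 333 gaps, and 300 gaps held 1 peak each. The gap with most held 5, in the 36783 bp between Su(z)2, a Polycomb group gene, and CG13323, with signals of 218, 184, 143, 138 and 111. Its neighbour Psc, also of the Polycomb group, bordered a gap with 2 more, at signals of 145 and 72.0. A 20910 bp gap between lncRNA:CR44603 and lncRNA:CR45695 held 4 peaks with signals of 82.2 to 148, and the gap from lncRNA:CR45695 to chinmo, a BTB zinc finger gene of neuronal temporal identity, held 2 more (101 and 63.1).
The gaps between lncRNA:CR44526 and SrpRbeta, between CG13970 and CG10651, and between lncRNA:CR43650 and Ugt37C1 held 3 each, as did the gap beside foxo. Some neighbours were summits of 1 region, since 12 pairs of members lay 199 to 237 bp apart, and members with overlapping intervals formed 363 separate groups.

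Each list of developmental and housekeeping genes examined held the nearest TSS of 3 or fewer peaks. A mesoderm or muscle transcription factor was nearest for 3 (bap, eya and slou; 0.8%, against 0.290% of windows). A segmentation gene was nearest for 2 (en and ptc; 0.533%, against 0.600%), and an epidermis or trachea gene for 2 (knrl and vvl; 0.533%, against 0.3%). There was 1 peak each (0.267%) by the neurogenesis factor pdm2, against 0.398% of windows for its list, the gut and fat body list gene sens, against 0.103%, and the ecdysone response gene Hr38, against 0.0942%. The cell cycle gene Cdk4 and the ribosomal protein gene RpS15Aa also had 1 each, against 0.0168% and 0.412% of windows for their lists. Transfer RNA genes were nearest for 4 peaks (1.07%), against 0.852% of windows. Hox genes, microRNA genes and the listed insulator or chromatin factor genes were nearest for 0, which allows up to 0.8%, and windows gave 0.0526%, 0.342% and 0.0186%. The last of these lists matched 28 genes and did not hold psq or Su(z)2, each the nearest gene of a member. Long noncoding RNA genes were nearest for 50 peaks (13.3%), against 23.5% of windows.

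The arms held similar densities except chromosome 4. There were 77 members on 2L, 71 on 2R, 85 on 3L, 84 on 3R, 50 on X and 8 on chromosome 4, and each of the first 5 arms had 0.973 to 1.19 times its share of admitted bases. Chromosome 4, a small and largely heterochromatic chromosome, had 3.39 times its share, and its members were 8 of its 32 summits (25%, interval 11.5 to 43.4%). No summit of any class was listed on Y. The strongest member of 2R lay 650 bp from pipsqueak (psq), a BTB-domain gene whose product binds GAGA sequences, with 346 in the pooled list, 164 in replicate 1 and 188 in replicate 2, and that of 2L was the peak beside del.

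The chromosome 4 peaks were also those most often missing from replicate 1. Of its 8 members, 1 (12.5%) was in the filtered list of replicate 1 and 7 in that of replicate 2. That 12.5% rests on 1 peak, and the other arms with members had 22.4% to 44%. Of all 32 chromosome 4 peaks, 14 (43.75%) were in the filtered list of replicate 1 and 29 in that of replicate 2. Over all its 32 peaks, 62.5% overlapped a peak in the unfiltered list of replicate 1, against 95.3 to 96.8% on each of the other 5 arms. The peak 768 bp upstream of eyeless (ey), the Pax6 gene of eye development, had 736 in the pooled list and 465 in replicate 2, and no peak in either list of replicate 1. The peak between fuss and toy, the second Pax6 gene, had 272 in the pooled list, 118 in replicate 1 and 144 in replicate 2. Others lay by RpS3A (201 in the pooled list), Sox102F (141 and 67), lncRNA:CR43437 (117), bt (116) and Asator (98.8). Counting without chromosome 4, a choice made after the data were seen, left the replicate 1 share at 31.1%.

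Motifs were searched on both strands within 50 bp of each summit, and a match is a description of letters, not a site. The full DRE, TATCGATA, which contains the DRE core and the BEAF-32 motif CGATA, was in 17 windows (4.53%, interval 2.66 to 7.16%), against 1.96% of intronic and 11.3% of promoter summits and 0.220% of 382018 eligible windows. The DRE core ATCGAT, counted with or without the full DRE, was in 40 (10.7%), against 5.29% of intronic and 23.5% of promoter summits and 2.56% of eligible windows. CGATA was in 87 (23.2%), against 14.8% of intronic and 39.0% of promoter summits and 10.7% of eligible windows. For these 3 overlapping motifs, the intergenic share lay between the intronic and the promoter share. In the list of replicate 1 alone, the ratio to eligible windows was 7.49 for the DRE core and 3.67 for CGATA, against 4.17 and 2.18 in the pooled list.

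Peaks with the DRE were strong. Their median signal was 318, against 121 in the 358 without it, and 14 of 17 (82.4%) overlapped a filtered peak of replicate 1, against 28.2%. By signal bin, low to high, the DRE was in 0, 3, 5 and 9 intergenic windows (0%, 2.36%, 6.67% and 22.0%), where 0 of 132 allows up to 2.27%. Promoter summits gave 1.12%, 2.95%, 8.72% and 28.1%, and each lay inside the interval of the intergenic share. Besides the peak at ey, the strongest with a DRE were near SrpRbeta (473), CG4593 (460), ArgRS (406) and RpL17 (397). In the filtered list of replicate 1 alone, intergenic summits had the DRE at 56.8 times its share of eligible windows, against 20.6 times in the pooled list.

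The Su(Hw) core GCATACTT was in 16 windows (4.27%, interval 2.46 to 6.84%), against 1.51% of intronic (interval 0.727 to 2.76%) and 0.358% of promoter summits (interval 0.222 to 0.547%) and 0.492% of eligible windows. The peaks with it were weak, with a median signal of 88.2, against 127 in the 359 without it. By bin, low to high, it was in 10, 4, 1 and 1. The exception was the peak beside srp at 722, and the next was near CG11317 at 160, then beside the segmentation gene knirps (kni) at 134. Replicate 1 held 1 of the 16 in its filtered list (6.25%), and replicate 2 held 81.3%. In the intergenic summits of the filtered list of replicate 1 alone, the core was at 1.69 times its share of eligible windows, against 8.67 times in the pooled list.

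The ETS motif ACCGGAA was in 12 windows (3.20%, interval 1.66 to 5.52%), against 0.302% of intronic (interval 0.0366 to 1.09%) and 0.631% of promoter summits and 0.688% of eligible windows. Its strongest peaks were near CG34342 (346), CG4702 (318) and msi (216), which encodes the RNA-binding protein Musashi. GAGAGAG, the GAGA factor motif, was in 15 (4.0%), against 12.4% of intronic and 3.09% of promoter summits and 1.12% of eligible windows. Intronic summits thus held it more often than either other class. Its intergenic peaks were weak to moderate (median 110), with 7, 7, 1 and 0 by bin, and 0 of 41 allows up to 7.32%. Above the median signal of the pooled list it was at 0.773 times its share of eligible windows, against 3.59 times over all members. The strongest intergenic peak with GAGAGAG lay near comm (208), a regulator of axon crossing at the midline.

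Ohler 7 was in 15 windows (4.0%), against 2.11% of intronic and 6.22% of promoter summits and 1.35% of eligible windows, and 60% of these peaks overlapped replicate 1. Its ratio to eligible windows was 7.40 in the list of replicate 1 alone, against 2.96 in the pooled list. CACGTG, an E-box, was in 11 (2.93%), against 2.72% of intronic and 1.60% of promoter summits and 1.08% of eligible windows. Its ratio of 2.72 to eligible windows was 4.64 in the list of replicate 1 alone and 1.61 in that of replicate 2 alone. Against windows 500 bp from the same summits the ratio was 11, which rests on few matches, in 0.267% of 750 windows. The homeodomain core TAATTA, named after its values were seen, went the other way, with 10 windows (2.67%), against 4.08% of intronic and 5.59% of promoter summits and 7.39% of eligible windows. The Pol III B box of transfer RNA genes was in 0, which allows up to 0.8%. It was in 0% of intronic and 0.392% of promoter summits and 0.0217% of eligible windows. That limit is above each of these shares, so the 0 does not set intergenic summits apart. No motif of the 29 listed was found in 144 of the 375 windows. The same count was not made for eligible windows or other summits, so it cannot be read as high or low.

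**Figure D5:**
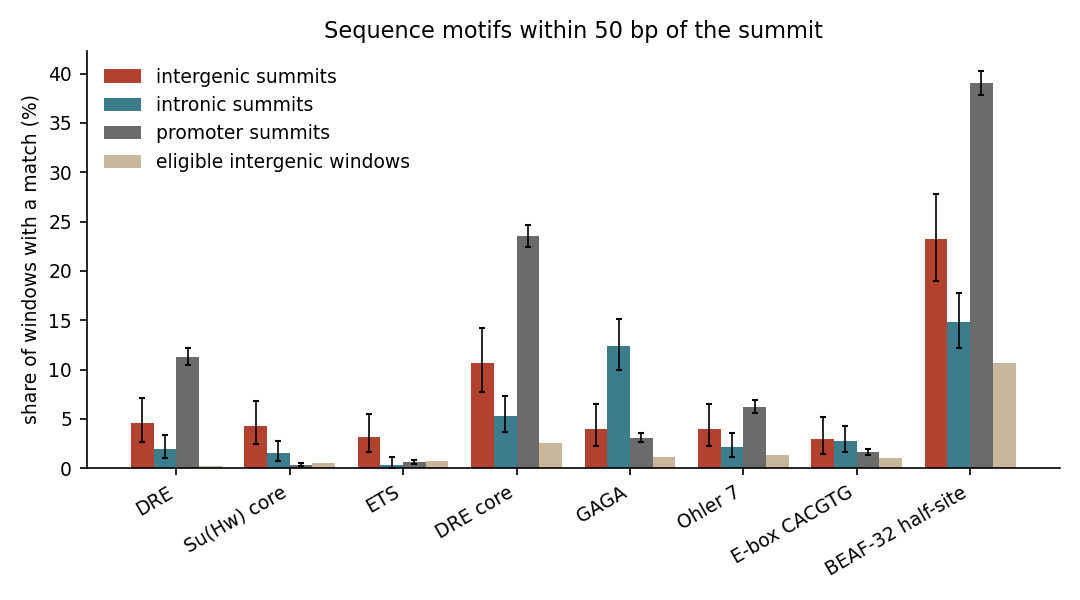
Share (%) of 101 bp windows with each motif, for intergenic, intronic and promoter summits (with 95% exact intervals) and eligible intergenic windows. The Su(Hw) core (4.27%) and ETS (3.20%) are most frequent at intergenic summits, the DRE (11.3%) at promoter summits and GAGA (12.4%) at intronic summits.

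Base composition differed between the sets that share these windows. The median GC content was 42.6% at intergenic summits, 46.5% at intronic, 42.6% at promoter summits and 40.6% in eligible windows. Among all 2080 words of 6 letters counted with their reverse complements, the largest excess over eligible windows was for GCGCCA, at 12.8% of intergenic windows and 3.37% of eligible ones, with 8.46% of intronic and 6.36% of promoter windows. GAGAGC (12.8% against 3.57%), AGAGCG (11.5% against 3.01%), TATCGA (11.7% against 3.44%) and ATCGAT followed. The largest deficits were for AT-rich words, AATAAA at 12.8% against 22.5% and AATTAA at 7.73% against 17.1%.

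Longer words behind that ranking were sought in 201 bp windows after these values were seen. GCGCCATCTA, which begins with the leading word of 6 letters, was in 14 of 375 windows (3.73%, interval 2.06 to 6.18%), against 0.755% of intronic (5 windows), 0.239% of promoter (14 windows) and 0.0526% of eligible windows. GGTGGCGCCA was in 10 (2.67%), against 0.302% of intronic, 0.0852% of promoter and 0.0422% of eligible windows. Peaks with GCGCCATCTA had a median signal of 126 (range 89.8 to 344), and those with GGTGGCGCCA 149 (range 101 to 473). All 14 and all 10 were in the filtered list of replicate 2, and 3 of each in that of replicate 1. AAAGTATGCA, which holds the Su(Hw) core, was in 14 (3.73%), against 1.06% of intronic, 0.273% of promoter and 0.264% of eligible windows, and in this set replicate 1 held 0 and replicate 2 held 11. CGACTATCAG was in 10 (2.67%), against 1.06% of intronic, 0.188% of promoter and 0.156% of eligible windows, and 5 of its 10 summits were soft-masked. The other leading words were GA-rich and more frequent at intronic summits. An unbroken GA repeat of 10 letters was in 13 (3.47%), against 6.80% of intronic, 1.84% of promoter and 0.349% of eligible windows, and GAGAGCGAGA in 10 (2.67%), against 3.47%, 1.06% and 0.265%.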

How the data were processed

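The files hold peak lists of ChIP-seq in the dm6 build: pooled optimal and conservative lists of both replicates, and for each replicate a filtered and an unfiltered list. The signal column holds a value the authors gave each peak, and the score column was not compared. The deposited summit offset, a column of another kind, was added to the peak start. The labels name a possible control, not analysed here. For the aligner, caller and depth, the entry is "not given in the sources used here", so no depth-based interval is possible, and pooled and single lists may differ in scale.

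Summits on the nuclear arms were classed with the Ensembl annotation (BDGP6.54, release 115) without transposable elements, and 5 mitochondrial peaks of 7031 were left out. Sequence came from the RefSeq Release 6 genome, whose arm names and lengths fit the lists. Peaks were counted as shared when they overlapped by at least 1 bp. Eligible windows were 382018 tiles of 101 bp. Members and gene and motif lists were chosen with earlier results of these data known. Named were the 20 strongest members, the strongest of each arm, the 5 fullest gaps, the members nearest the distance limit, motifs at 2 or more or 0.5 or fewer times the share of eligible windows in at least 5 members (up to 8), and the leading words of 6 letters. Python 3.11.15, numpy 2.4.6, pandas 2.3.3 and scipy 1.17.1 were used, and class, overlap and motif counts were tested on simulated data. Replicates are labelled as separate biological samples.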

Additional observations from a re-analysis of the deposited data

How the results depend on the processing

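The share of intergenic summits (5.34%) was 4.45% in the conservative list, 3.30% above the median signal, 3.86% at 1000 bp and 8.87% at 200 bp from a TSS (623 summits), 2.26% with 1000 bp added to genes (159 summits) and 7.2% with protein-coding genes only. The lists of the single replicates gave 3.0% and 6.29% (120 and 462 summits), and 116 summits lay above the median signal. Overlap with replicate 1 was 41.1% for the conservative list, 75% above the median signal, 43.8% at 200 bp, 21.4% with genes extended and 23.2% for the list of replicate 2. Overlap with replicate 2 was 100% above the median signal, 79.9% with genes extended and 91.7% for the list of replicate 1. The median signal was 143 in the conservative list, 233 above the median, 116 with genes extended, and 79.4 and 79.7 in the lists of replicates 1 and 2, which may have their own scale. The median TSS distance was 2687 bp at 1000 bp, 785 bp at 200 bp, 3347 bp with genes extended and 2165 bp with protein-coding genes only. Counting overlapping members once, the 2 stricter overlaps and leaving out chromosome 4 moved no count, share or median beyond its interval. Of the 112 motif ratios recomputed, 91 stayed within the interval, and GAGA reversed above the median signal, at 0.773 times the eligible share. The Su(Hw) ratio was 1.69 in the list of replicate 1, against 8.67. The ratio of the DRE ranged from 11.3 to 56.8. Except for the GAGA ratio above the median signal, all stayed above 1. Causes were not tested, and sequencing depth is unknown. No paired analysis was possible because there is 1 group.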
